A study of Mus musculus with 2 samples.

Results

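Keratins are the intermediate filament proteins of epithelial cells, and the mouse keratin genes were followed here through single cells of the retinal pigment epithelium (RPE) and choroid. The genes were chosen by name, as every gene row whose symbol is Krt followed directly by a digit, which gave 51 of 27998 rows. Of these, 28 encode type I and 23 encode type II keratins. The samples were droplet single-cell libraries of C57BL/6J mice, with 1 library for each of 2 groups. The NaIO3 group had been given sodium iodate, an oxidant that damages the RPE, by intravenous injection of 20 mg/kg, and the control group had been given phosphate-buffered saline (PBS) in the same volume; both are labelled as 7 days of treatment. Each library pooled the eyes of 6 mice of the wild-type strain, whose age and sex are not in the labels. Per the labels, eyes were digested with dispase, the front of the eye and the neural retina were taken away, and hexagonal cells with brown pigment were picked under the microscope. With 1 pooled library per group, no difference between the groups could be tested, and every interval below is a 95% interval that covers counting error only.

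A filament is built from pairs of 1 type I and 1 type II protein, so a cell that makes filaments carries at least a member of each type, and which pair it carries is a classical mark of the kind of epithelium. KRT8 and KRT18 form the pair of simple epithelia, the RPE among them. KRT5 pairs with KRT14 or KRT15 in the basal layer of stratified epithelia, KRT4 and KRT13 mark the upper layers of moist stratified epithelia such as conjunctiva, KRT12 is the keratin of corneal epithelium, and KRT6 with KRT16 or KRT17 marks epithelia that are stressed or healing. When cells break during preparation, their RNA enters droplets that hold other cells. An abundant transcript of a few cells can therefore be counted in many others, and such transcripts are called free RNA here.

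After filters, 4216 PBS cells and 3812 NaIO3 cells were kept, out of 4618 barcodes with 51055592 unique molecular identifiers (UMIs) and 4058 barcodes with 51168520 UMIs. The libraries share 24 cell barcodes. The cells were clustered with all keratin rows removed and named from marker lists that hold no keratin, so that no keratin helped to place a cell. RPE-like cells numbered 3408 in PBS and 1683 in NaIO3, and all 10 RPE markers were detected in them, with a summed level of 22859 and 21315 CPM. A level in CPM is the sum of a gene's UMIs over the cells of a group, scaled to 1000000 UMIs of all genes in those cells. Since a UMI stands for 1 captured molecule, levels were not scaled by gene length. A further cluster of 523 NaIO3 cells, in which pigment genes such as Pmel and Dct lead, had these markers at 17727 CPM and is called pigment-led. The labels name RPE and choroid, but 688 NaIO3 cells and 66 PBS cells were surface epithelium-like, in clusters 4, 9 and 11. Clusters 7 and 13, with 254 cells from the NaIO3 library alone, held genes of the extracellular matrix beside pigment genes and are called matrix-rich pigment cells. Their 12 matrix markers summed to 7724 CPM against 449 in RPE-like NaIO3 cells, and their RPE markers to 3532. On the pigment list, cluster 13 scored a mean log2 of 2.37 above the median cluster, but cluster 7, with 169 of these cells, only 0.661. Clusters named otherwise scored above cluster 7, such as fibroblast-like cluster 17 at 1.34, so the pigment part of its name is uncertain.

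Of the 51 keratins, 21 had at least 100 UMIs over all kept cells and 20 had between 1 and 99, while 10 had none. Krt12 alone, the corneal type I keratin, gave 219348 UMIs, which is 28.2% of all keratin UMIs, and with Krt6a (88638), Krt5 (84619), Krt18 (82682) and Krt15 (80761) it made up 71.5%. Next came Krt6b with 70055, Krt13 with 41415, Krt14 with 22206, Krt8 with 21956, Krt16 with 21015 and Krt4 with 17151 UMIs. The other 10 keratins above 100 UMIs ran from Krt19 with 9408 down to Krt75 with 121. Keratins made up 0.228% of the UMIs of kept PBS cells and 1.38% of those of kept NaIO3 cells. In the genome the family lies in a pair of blocks: 27 type I genes lie on chromosome 11 (99232761 to 100269871, GRCm38), and 24 genes lie on chromosome 15 (101347444 to 102032027), which are all 23 type II genes and Krt18 as the type I exception. Krt6a and Krt6b are near-identical copies, so the split between them is uncertain, since the handling of reads that match both is not given in the sources used here. Of the 21 keratins, 8 (Krt12, Krt6a, Krt5, Krt6b, Krt8, Krt10, Krt7 and Krt75) overlap an annotated gene on the opposite strand, and whether the counting used strand is not given either. The heat map of keratin levels shows that different members led in the RPE and in the surface epithelium.

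**Figure D1:**
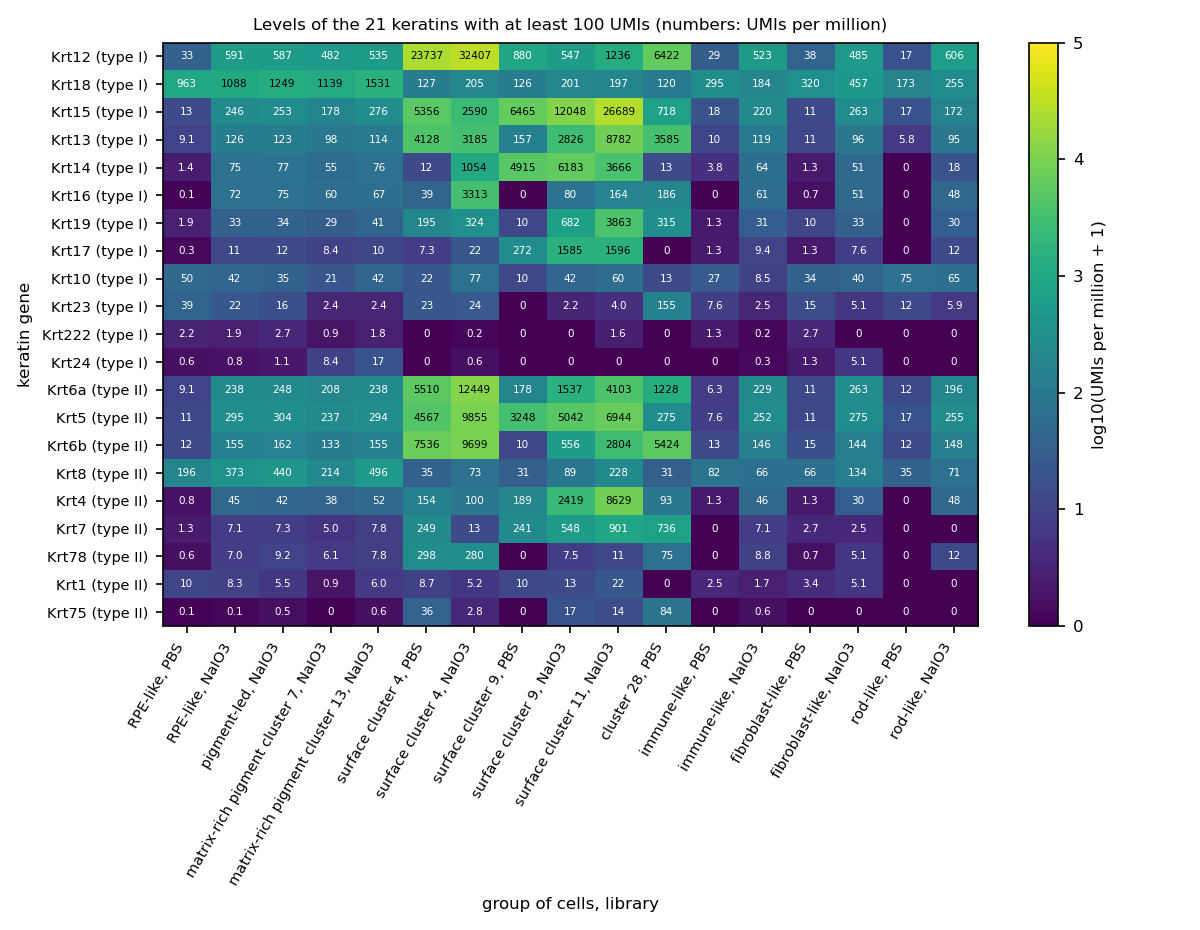
Level of the 21 keratins with at least 100 UMIs (rows) in 17 groups of cells (columns, with the library after the comma); colour is log10 of CPM plus 1, and the printed numbers are CPM. Krt18 is highest in RPE-like and matrix-rich pigment cells, and Krt8 leads type II there except in matrix-rich cluster 7, where Krt5 does. Krt12 is highest in surface cluster 4 and Krt15 in surface clusters 9 and 11, while a lower Krt12 level runs across the NaIO3 groups.

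In RPE-like cells of both libraries Krt18 was the highest type I keratin and Krt8 the highest type II keratin, and their genes are neighbours. In NaIO3, Krt12 at 591 CPM stood between them. Krt8 lies at chr15:101996698-102004482 on the minus strand and Krt18 at chr15:102028180-102032027 on the plus strand, so that the genes point away from each other across a gap of 23697 bases. The 250 bases before their RefSeq starts (build GRCm38.p6) are shown beside those of Krt12, the most counted keratin, because these genes are the ones on which the comparison of pigmented and surface cells turns. The gene spans above are those of GENCODE; the RefSeq starts of Krt8 and Krt18 lie inside them, so their windows reach into the printed spans. Krt8 stands at chr15:102004343-102004592 (minus strand), Krt18 at chr15:102027966-102028215 (plus strand) and Krt12 at chr11:99422260-99422509 (minus strand). All are printed 5′ to 3′ on the gene's own strand, with matches to TATAAA in capitals.
Krt8: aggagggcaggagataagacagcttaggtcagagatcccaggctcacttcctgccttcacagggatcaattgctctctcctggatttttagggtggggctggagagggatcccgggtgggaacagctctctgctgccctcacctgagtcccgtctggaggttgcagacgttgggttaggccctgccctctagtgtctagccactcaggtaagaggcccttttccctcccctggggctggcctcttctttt
Krt18: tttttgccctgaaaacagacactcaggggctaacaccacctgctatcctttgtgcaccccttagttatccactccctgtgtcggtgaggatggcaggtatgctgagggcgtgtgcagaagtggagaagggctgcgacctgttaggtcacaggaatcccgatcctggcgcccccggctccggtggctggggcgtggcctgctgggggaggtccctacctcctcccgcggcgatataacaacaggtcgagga
Krt12: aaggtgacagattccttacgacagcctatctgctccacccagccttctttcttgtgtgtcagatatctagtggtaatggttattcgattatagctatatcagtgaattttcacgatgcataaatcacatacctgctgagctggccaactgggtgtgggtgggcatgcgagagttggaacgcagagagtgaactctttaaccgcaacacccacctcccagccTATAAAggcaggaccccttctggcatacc
The Krt12 window holds TATAAA, whose first base is 29 bases before the start, and neither the Krt8 nor the Krt18 window holds these letters. The letters TATAAA and GGGCGG were searched on both strands in the 35 keratins that had an entry. TATAAA was found in 17 of the 35 and GGGCGG in 2 (Krt7 and Krt75), and no window held both, against 12.4% and 32.7% of all 32851 promoter windows of this length. Among the 12 keratins with an entry and at least 100 UMIs, TATAAA was found in 2, Krt10 and Krt12. A match is a run of letters and says nothing of whether a factor binds there.

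Krt18 stood at 963 CPM (953 to 972) in RPE-like PBS cells and at 1088 (1074 to 1103) in RPE-like NaIO3 cells. It was the keratin with the highest level in both, and a typical cell held 10 Krt18 UMIs in PBS (quartiles 6 and 16) and 11 in NaIO3 (quartiles 7 and 16). A Krt18 UMI was found in 99.1% of RPE-like PBS cells and 99.9% of RPE-like NaIO3 cells. Immune-like cells, which should lack keratins, held one in 55.2% and 82.0% of cells, at median depths of 4401 and 10974 UMIs against 11310.5 and 9648 in RPE-like cells. With each cell thinned to 3000 UMIs, the shares were 90.6% and 94.5% in RPE-like cells against 42.1% and 45.3% in immune-like cells. The Krt18 level of immune-like cells was 295 CPM (258 to 335) in PBS and 184 (173 to 194) in NaIO3, so RPE-like cells lay 3.27 times (2.87 to 3.73) and 5.93 times (5.59 to 6.29) above it. Within the immune-like PBS cells, a cluster led by dendritic cell genes (cluster 15) stood at 508 CPM and is part of that level. It scored a mean log2 of 0.771 on the RPE list, where the other immune-like clusters scored between -1.02 and -0.320. The part of RPE cells or RNA in its Krt18 level was not tested.

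Krt8, the type II partner of Krt18, stood at 196 CPM (192 to 200) in RPE-like PBS cells and at 373 (365 to 381) in RPE-like NaIO3 cells. The 3 RPE-like PBS clusters lay between 183 and 206, and the 5 RPE-like NaIO3 clusters between 298 and 414. The ranges of the 2 libraries thus did not overlap, but clusters cut from the same library are not replicates. The libraries were also clustered without integration, and the share of all genes with such a gap was not counted. The gap is therefore no test of a difference between the groups. In immune-like cells Krt8 stood at 82.2 and 65.7 CPM. For every 100 Krt18 UMIs there were 20.4 Krt8 UMIs (19.9 to 20.9) in RPE-like PBS cells and 34.3 (33.4 to 35.2) in RPE-like NaIO3 cells. The same ratio was 27.9 (20.9 to 36.9) and 35.8 (31.9 to 40) in immune-like cells, so in NaIO3 the ratio in RPE-like cells lay inside the interval of the immune-like cells. Across thinned single cells Krt8 and Krt18 went together only weakly, with Pearson's r of 0.172 over 3406 RPE-like PBS cells and 0.127 over 1683 RPE-like NaIO3 cells. These points share a library and rest on few UMIs each.

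A smaller set of keratins was also above immune-like cells in the RPE. The bound was a ratio of mean UMIs per cell with a lower limit over 2, and at least 20 UMIs. The same 5 keratins passed in both libraries: Krt18, Krt8, Krt10, Krt23 and Krt1. The share of all genes that pass this bound was not counted. Krt10 and Krt1 are the pair of the upper epidermis, and Krt23 is a type I keratin. Krt10 stood at 49.5 CPM in RPE-like PBS cells and 41.6 in RPE-like NaIO3 cells, beside 26.5 and 8.50 in immune-like cells. Krt23 stood at 39.3 (37.5 to 41.3) and 22.3 (20.3 to 24.4), beside 7.58 and 2.47. Krt1 stood at 10.2 and 8.29, beside 2.53 and 1.70. Immune-like PBS cells were shallower than RPE-like PBS cells, at a median of 4401 against 11310.5 UMIs. The PBS ratios per cell therefore also hold this difference in depth, and the same 5 in both libraries is not independent of it. In CPM only Krt18 and Krt23 passed in PBS, while in NaIO3 6 passed, the same 5 and Krt222. Krt222, a keratin-like gene, was rare, at 2.21 and 1.85 CPM. With rod-like cells as the reference in place of immune-like cells, 3 passed by UMIs per cell in PBS (Krt18, Krt8 and Krt23) and 2 in NaIO3 (Krt18 and Krt8). That reference held only 37 PBS and 19 NaIO3 cells, so a minor keratin could hardly reach the bound. With fibroblast-, mural- and endothelial-like cells as reference (354 and 57), the same 5 passed in PBS, and Krt18 and Krt8 in NaIO3. Rod-like cells held Krt10 at 75.1 and 65.3 CPM.

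**Figure D2:**
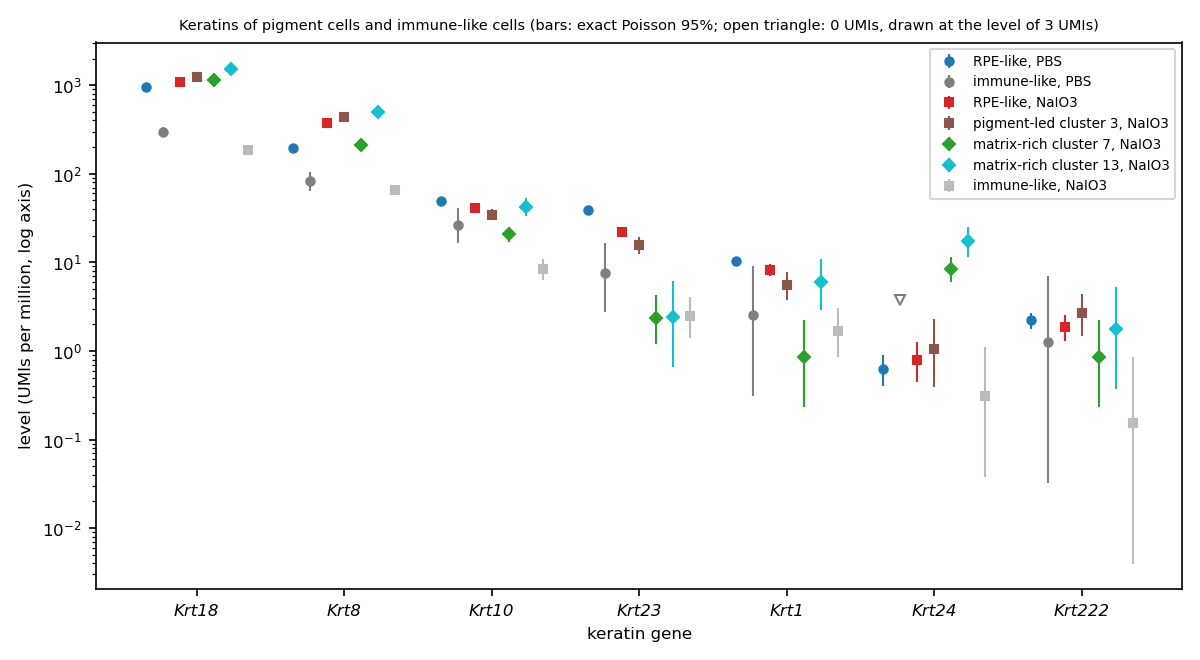
Level of 7 keratins in pigmented groups and in immune-like cells, in CPM on a log axis; points are levels, bars are exact Poisson 95% intervals, and an open triangle marks 0 UMIs, drawn at the level 3 UMIs would give. Krt18 and Krt8 lie above immune-like cells in every pigmented group, Krt23 lies lower in NaIO3 than in PBS RPE-like cells, and Krt24 is highest in matrix-rich cluster 13 at 17.3.

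Between the libraries, the members of the simple pair differed by unequal amounts in the RPE: Krt8 was 1.90 times as high in NaIO3 as in PBS (1.84 to 1.96) and Krt18 1.13 times (1.11 to 1.15). The Krt18 value turned to 0.989 with TMM scaling, which sets the bulk of genes to equal levels, so its direction depends on the scaling. Mitochondrial counts, a sign of RNA quality, had a median share of 8.33% in RPE-like PBS cells and 11.3% in RPE-like NaIO3 cells (13.7% in the pigment-led cluster); with a limit of 10% on that share the ratios were 1.76 for Krt8 and 1.05 for Krt18. Krt23 was lower in NaIO3, at 0.567 times (0.510 to 0.629), and Krt10 and Krt1 stood at 0.839 (0.774 to 0.909) and 0.810 (0.674 to 0.969). The Krt10 ratio changed direction to 1.04 when each library was clustered alone and to 1.44 when the level of immune-like cells was subtracted. Rare Krt24 stood at 1.26 times and Krt222 at 0.839 times.

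All keratins together were 2.54 times as high in RPE-like NaIO3 cells as in RPE-like PBS cells (2.51 to 2.57), at 3438 against 1354 CPM. Of the 21 keratins with at least 20 UMIs in 1 of the libraries, 13 were more than 2-fold higher in NaIO3, against 10.5% of 13352 genes, and 0 were more than 2-fold lower, against 2.7% of genes. The median log2 ratio was 3.73 over the keratins and 0.17 over all genes. The 13 were keratins of surface epithelium: Krt12 (17.9 times), Krt15 (19.4), Krt5 (27.8), Krt6a (26.3), Krt6b (13.3), Krt13 (13.7), Krt14 (55.1), Krt4 (59.3), Krt19 (17.7), Krt17 (40.3), Krt7 (5.45), Krt78 (11.8) and Krt16. Krt16 went from 4 UMIs in all RPE-like PBS cells to 1486 in NaIO3, a ratio of 763 (297 to 2803). With a mitochondrial limit of 10% the Krt12 ratio was 10.9 (10.3 to 11.5). None of these 13 passed as above immune-like cells in either library. In NaIO3, Krt12 stood at 591 CPM in RPE-like cells and at 523 in immune-like cells, Krt5 at 295 and 252, Krt6a at 238 and 229, and Krt4 at 45.1 and 46.3. Krt8 and Krt18 made up 85.6% of the keratin level of RPE-like cells in PBS (1159 of 1354 CPM) and 42.5% in NaIO3 (1461 of 3438). The other keratins summed to 195 CPM in RPE-like and 129 in immune-like PBS cells, and to 1977 and 1731 in NaIO3.

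Genes that work with keratins were counted from lists in the same way. Of 14 matched linker genes, which tie keratins to desmosomes, hemidesmosomes or other filaments, 8 were more than 2-fold higher in RPE-like NaIO3 cells and 0 lower, with a median log2 ratio of 1.56, where 10.5% of all genes were higher and 2.7% lower. The cytolinkers that RPE-like cells held most of were near level, with Macf1, at 117 and 103 CPM in the PBS and NaIO3 libraries, and Dst, at 47.4 and 51.1. Dsp, the desmosome plaque protein that anchors keratins, stood at 43.9 and 66.5. Jup, another plaque protein, stood at 5.37 and 51.3, but immune-like cells of the NaIO3 library also held it, at 53.4 CPM. Of 15 regulators and partners of keratins with enough UMIs, 10 were higher and 0 lower, and of 7 cornified envelope genes 5 were higher and 0 lower, with median log2 ratios of 2.57 and 4.06, beside the same shares of all genes. Genes of these lists were also counted in immune-like NaIO3 cells: Sfn stood at 107 CPM in RPE-like and 91.1 in immune-like cells, Hspb1 at 88.0 and 82.2, Cnfn at 44.4 and 35.8, and Sprr1a at 36.4 and 32.7. Of 9 other intermediate filament genes 2 were higher and 2 lower, with a median of 0.24.

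The pigment-led cluster of the NaIO3 library had the RPE pair at 1249 CPM (Krt18) and 440 (Krt8), with 35.3 Krt8 UMIs per 100 Krt18 UMIs. Set against cluster 2, the RPE-like PBS cluster whose leading genes are most like it, Krt8 stood at 2.14 times (2.02 to 2.26) and Krt18 at 1.21 times. Krt23 was the single keratin more than 2-fold lower, at 0.427 times (0.336 to 0.538), where 2.83% of 11230 genes were lower. Of the 19 keratins used, 14 were more than 2-fold higher, against 8.04% of genes, and the summed level was 2.58 times as high. The choice of cluster 2 for this comparison was made after the clusters were seen.

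Matrix-rich pigment cells of the NaIO3 library carried the pair of simple epithelia. Krt18 stood at 1139 CPM (1108 to 1170) in cluster 7 and 1531 (1472 to 1591) in cluster 13, against 1088 in RPE-like NaIO3 cells. Krt8 stood at 214 (201 to 228) in cluster 7 and 496 (462 to 530) in cluster 13, against 373. Cluster 7 thus had 18.8 Krt8 UMIs per 100 Krt18 UMIs and cluster 13 had 32.4. These cells were deep, with median UMIs per cell of 27385 and 18702, and a typical one held 22.5 Krt18 UMIs (quartiles 11 and 46). Cluster 7 had less of the RPE list, at 2272 CPM against 7015 in cluster 13, and the same list stood at 2087 in immune-like NaIO3 cells. Melanocyte markers, for the other pigmented cell of the choroid, summed to 46.3 CPM in matrix-rich cells and 73.7 in RPE-like NaIO3 cells, and none of the 6 was at 0. Lists of stromal cells stood higher in matrix-rich than in RPE-like NaIO3 cells: mural markers summed to 1376 against 217 CPM, of which Acta2 gave 1320, and fibroblast markers to 633 against 54.6, of which Col1a1, also a matrix marker, gave 595. Both lists were highest in cluster 7 of these, at 1644 and 829, and no pigment gene is among its 10 leading genes. The part of stromal cells in the keratin levels of these clusters was not tested.

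The keratins more than 2-fold apart between matrix-rich and RPE-like NaIO3 cells were minor type I and II members. Krt24, a type I keratin, stood at 10.8 CPM (8.38 to 13.7, from 68 UMIs) in matrix-rich cells against 0.780 in RPE-like cells, which is 13.8 times as high (7.93 to 25.5). It was found in both matrix-rich clusters, at 8.43 and 17.3 CPM, and in 20.1% of matrix-rich cells, or 3.54% after thinning; immune-like cells stood at 0.309. Krt23 was lower at 2.38 CPM, 0.107 times the RPE-like level (0.059 to 0.178), and Krt1 at 0.268 times (0.143 to 0.462). Krt24 was the single keratin more than 2-fold higher of 20 used, against 19.2% of 12823 genes, and Krt23 and Krt1 the 2 that were lower, against 11.7%. Krt10 stood at 0.637 times, with 20.7 CPM in cluster 7 and 42.4 in cluster 13. Keratins together stood at 0.932 times the RPE-like level, and the median log2 ratio was -0.25, where that of all genes was 0.17. By contrast, 5 of 7 other intermediate filament genes were more than 2-fold higher: Vim, the filament of mesenchymal cells, stood at 1099 against 55.5 CPM, Lmna, a lamina protein of the nucleus, at 245 against 35.5, and Nes at 25.1 against 0.683. Immune-like NaIO3 cells held Vim at 253 CPM. Of 14 linkers 3 were higher, with Plec at 69.8 against 17.2 CPM, Pkp2 at 23.8 against 8.10 and Itgb4 at 3.33 against 1.22, and 1 was lower, Dsp at 30.3 against 66.5.

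Surface epithelium-like cells held the most keratin of the named groups, and their clusters differed in which members led. Cluster 4, with 427 NaIO3 and 48 PBS cells, scored highest on the list of corneal genes, at a mean log2 of 3.39 above the median cluster, and keratins were 7.57% of its UMIs in NaIO3 and 5.20% in PBS. Its leading type I keratins in NaIO3 were Krt12 at 32407 CPM, Krt16 at 3313 and Krt13 at 3185, and its leading type II keratins were Krt6a at 12449, Krt5 at 9855 and Krt6b at 9699. Krt12 was the most counted type I keratin in 96.0% of the NaIO3 cells (410 of 427) and in 85.4% of the PBS cells (41 of 48). The leading type II keratin varied from cell to cell: in NaIO3 it was Krt6a in 44.3%, Krt5 in 28.6% and Krt6b in 26.0% of cells, and in PBS it was Krt6b in 64.6%. Krt18 and Krt8 were at 205 and 72.8 CPM in these NaIO3 cells, near the 184 and 65.7 of immune-like cells.

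Cluster 9, with 140 NaIO3 cells, scored above the other surface clusters on genes of dividing cells and on basal genes such as Gpha2, at 4.48 and 3.89. Its type I keratins were led by Krt15 at 12048 CPM, Krt14 at 6183 and Krt13 at 2826, and its type II keratins by Krt5 at 5042, Krt4 at 2419 and Krt6a at 1537. Krt15 led in 74.3% of cells, Krt14 in 24.3%, and Krt5 led the type II keratins in 95%. Krt17, a keratin of healing epithelium, stood at 1585. The corneal Krt12 stood at 547 CPM, close to the 523 of immune-like cells, with a median of 5 UMIs per cell against 6. Within the cluster, Krt13 and Krt4, the pair of moist stratified epithelia, went together across thinned cells with r of 0.818 over 140 cells, whereas Krt15 and Krt14 had r of -0.284. The 10 PBS cells of this cluster also led with Krt15 (6465), Krt14 (4915) and Krt5 (3248).

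Cluster 11, with 121 NaIO3 cells, scored about equally on corneal and basal genes, at 2.13 and 2.11. On conjunctival genes it scored 1.62, beside 1.72 in cluster 4 and 1.27 in cluster 9. Cluster 11 carried the highest Krt15 level. Krt15 stood at 26689 CPM, Krt13 at 8782 and Krt19, a keratin of conjunctiva and limbus, at 3863. Type II was led by Krt4 at 8629, Krt5 at 6944 and Krt6a at 4103. Krt15 led in 95% of cells, and Krt4 led in 63.6% and Krt5 in 35.5%. The mean Krt12 level was 1236 CPM, yet its median was 5 UMIs per cell while 1 cell held 862. Krt8 stood at 228 CPM (202 to 256), or 116 UMIs per 100 of Krt18 (97.3 to 138), a ratio unlike the 34.3 of RPE-like NaIO3 cells, and Krt18 itself stood at 197.

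**Figure D3:**
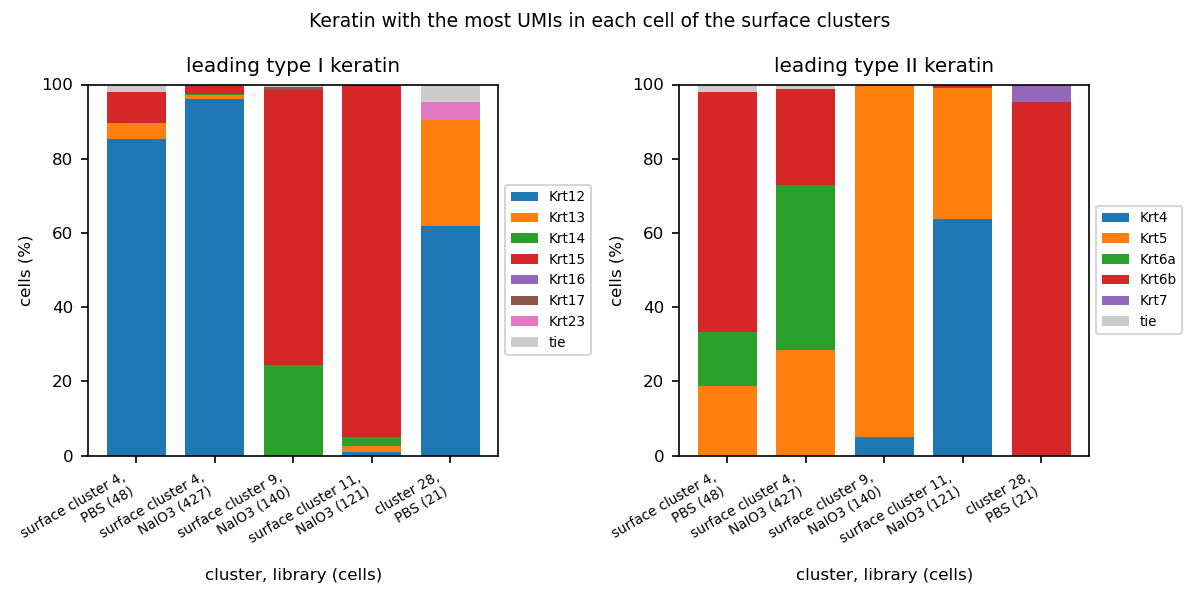
Percent of cells in which each keratin has the most UMIs among type I (left) and type II (right) keratins, for surface clusters 4, 9 and 11 and for cluster 28, with the library and, in brackets, the number of cells below each bar. Krt12 leads in 96.0% of cluster 4 NaIO3 cells and Krt15 in 95% of cluster 11 cells, while type II leadership is split in cluster 4.

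Cluster 28, with 21 PBS and 5 NaIO3 cells, scored on both conjunctival (3.10) and corneal genes (2.65) and was left unnamed. Its PBS cells held Krt12 at 6422 CPM, Krt13 at 3585 and Krt15 at 718, with Krt6b at 5424, Krt6a at 1228 and Krt7, a keratin of simple and glandular epithelia, at 736. Krt12 led in 61.9% and Krt13 in 28.6% of these 21 cells, and Krt6b led the type II keratins in 95.2%. Krt23 stood at 155 CPM, against 39.3 in RPE-like PBS cells.

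Cluster 4 could be set side by side between the libraries. Krt16 stood at 3313 CPM in NaIO3 and 39.3 in PBS, a ratio of 84.3 (58.0 to 128), and Krt14 at 1054 and 11.6, a ratio of 90.6. Krt6a (12449 and 5510), Krt5 (9855 and 4567), Krt10 (76.7 and 21.8) and Krt17 (21.7 and 7.27) were also more than 2-fold higher in NaIO3. So was Krt8 (72.8 and 34.9), so that 7 of 20 keratins were higher, against 17.2% of 9213 genes. Of these 7, Krt8 and Krt17 passed as above immune-like cells in cluster 4 of neither library, and Krt10 and Krt14 passed in NaIO3 only. Immune-like cells held Krt8 at 65.7 CPM in NaIO3 and 82.2 in PBS. Krt7 stood at 13.1 against 249, Krt75 at 2.81 against 36.4 and Krt15 at 2590 against 5356, the 3 keratins more than 2-fold lower, against 3.83% of genes. Krt12 itself was 1.37 times as high, at 32407 against 23737, and Krt6b 1.29 times. Krt13 (3185 and 4128), Krt78 (280 and 298), Krt19 (324 and 195) and Krt4 (100 and 154) lay within 2-fold. Keratins together were 1.45 times as high (1.44 to 1.47), and the median log2 ratio was 0.41 over keratins and 0.16 over all genes.

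The cells of cluster 4 were not alike in the 2 libraries. When surface cells were clustered again without keratins, 35 of the 48 PBS cells formed a subcluster that held no NaIO3 cell. The part of this difference in makeup in the keratin ratios was not tested. All 7 cornified envelope genes with enough UMIs were more than 2-fold higher in the NaIO3 cells, among them Sprr1a at 2112 against 23.3 CPM and Cnfn at 1660 against 75.6. Sprr1b stood at 135 against 0 UMIs in the 48 PBS cells. Of 12 linker genes 5 were higher and 0 lower, with Jup at 1285 against 489 CPM and Dsp at 1117 against 499. Among 16 regulators 1 was higher, Sfn at 4558 against 1548, and 1 was lower, Krtcap3 at 5.61 against 16.0, where 17.2% and 3.83% of all genes were. Klf4 and Elf3, transcription factors of barrier epithelia, lay near level at 1270 against 1206 and 1246 against 1206.

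Among the subclusters of cluster 4 the corneal keratin was present throughout while the others varied widely. Krt12 ran from 19664 CPM in subcluster 9 to 40923 in subcluster 5. Krt16 reached 6696 in subcluster 9, where Krt12 and Krt15 (702) were at their lowest. Krt78, a type II keratin, stood at 614 in subcluster 0, which is led by the cornified genes Cnfn and Lce3a, and at 73.0 in subcluster 5. Across thinned cells of the cluster the copies Krt6a and Krt6b had r of 0.532 over 427 NaIO3 cells.

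Keratins of surface epithelium were also counted, at a lower level, in the pigmented, immune, stromal and retinal cells. In NaIO3, Krt12 lay between 376 CPM (endothelial-like) and 983 (Muller glia-like) in 8 groups outside the surface epithelium. The median of these groups was 555, which is 13.5% of the 4117 CPM over all kept cells of the library. In PBS, Krt12 lay between 17.3 (rod-like) and 49.8 (cone-like) in 6 groups, with a median of 35.3, which is 8.32% of the library's 424. In the same NaIO3 groups Krt5 lay between 252 and 378, Krt6a between 188 and 290, Krt15 between 145 and 263, Krt13 between 86.8 and 126, Krt16 between 43.4 and 85.2 and Krt19 between 14.5 and 37.3. Krt6b (79.6 to 242), Krt14 (17.8 to 77.5) and Krt4 (14.5 to 47.5) ranged more widely than Krt12 in proportion. No droplets without cells were analysed here, so the level was read from cells alone. Of the groups left out of these ranges, red cell-like PBS cells stood higher for Krt12, at 1467 CPM. Cluster 32 of that group also scored 2.06 on corneal genes. Mural-like PBS cells held 1 Krt12 UMI (13.4 CPM), and bipolar or amacrine neuron-like cells stood at 27.0 in PBS and 539 in NaIO3.

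**Figure D4:**
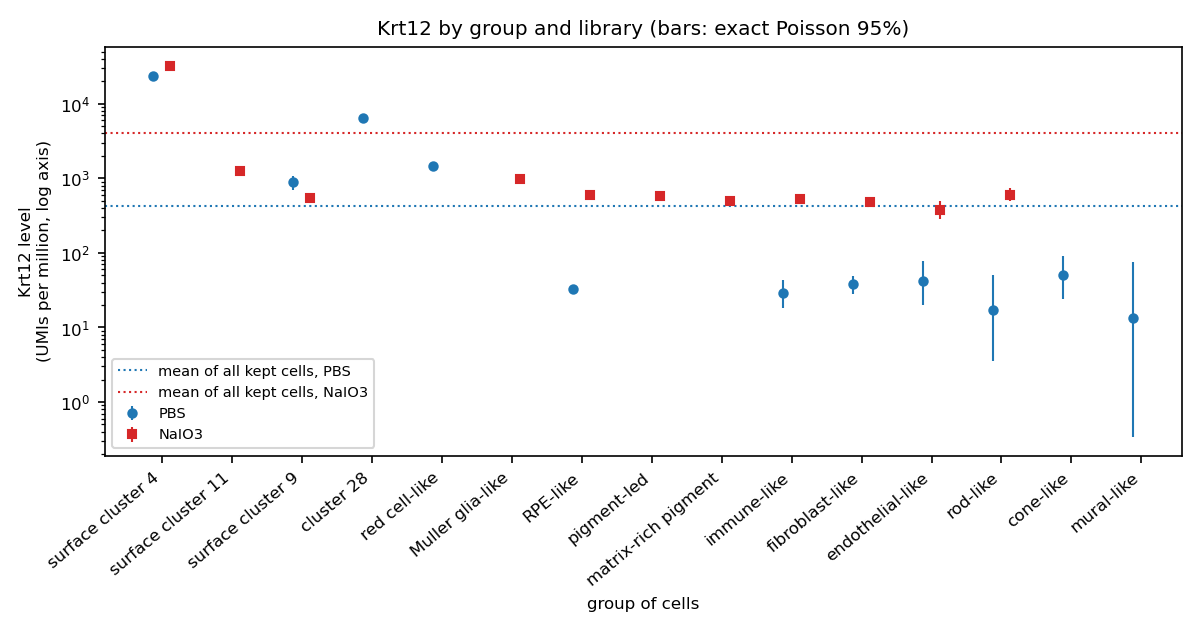
Krt12 level by group of cells and library, in CPM on a log axis; points are levels, bars are exact Poisson 95% intervals, and dotted lines are the mean over all kept cells (424 in PBS, 4117 in NaIO3). Apart from red cell-like PBS cells at 1467, the pigmented, immune, stromal and retinal groups lie below the line of their library, between 13.4 and 49.8 in PBS and between 376 and 983 in NaIO3.

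The mixture of surface keratins was similar in RPE-like and immune-like cells. For every 100 Krt12 UMIs in NaIO3, RPE-like cells held 49.9 Krt5, 40.3 Krt6a, 41.6 Krt15, 26.3 Krt6b and 21.3 Krt13 UMIs. Immune-like cells held 48.1, 43.8, 42.1, 28 and 22.8 of these, and surface epithelium-like cells held 38.8, 42.0, 36.2, 32.0 and 18.1. Krt5 was thus lower in surface epithelium-like than in RPE-like cells, with intervals that do not overlap (38.5 to 39.2 against 48.3 to 51.4). The same held for Krt15 (35.9 to 36.5 against 40.2 to 43.0) and Krt13 (17.9 to 18.4 against 20.4 to 22.2), while Krt6b was higher (31.7 to 32.3 against 25.2 to 27.3). Muller glia-like cells went against the RPE-like mixture, with 21.7 Krt15 (16.8 to 27.7) and 12.2 Krt13 UMIs (8.70 to 16.6). In cells outside the surface epithelium deeper cells held more Krt12 UMIs, but less than in proportion to their depth: over 4 classes of depth, NaIO3 cells held 4.01, 5.55, 8.90 and 15.2 per cell, while the CPM level went from 780 through 643 and 538 to 460. PBS cells held 0.167, 0.311, 0.529 and 0.732 per cell, at 38.9, 34.1, 33.1 and 26.6 CPM. A Krt12 UMI was found in 99.6% of RPE-like and 99.2% of immune-like NaIO3 cells (84.3% and 78.8% after thinning), and in 32.5% and 13.8% of PBS cells (9.84% and 10.3% after thinning).

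**Figure D5:**
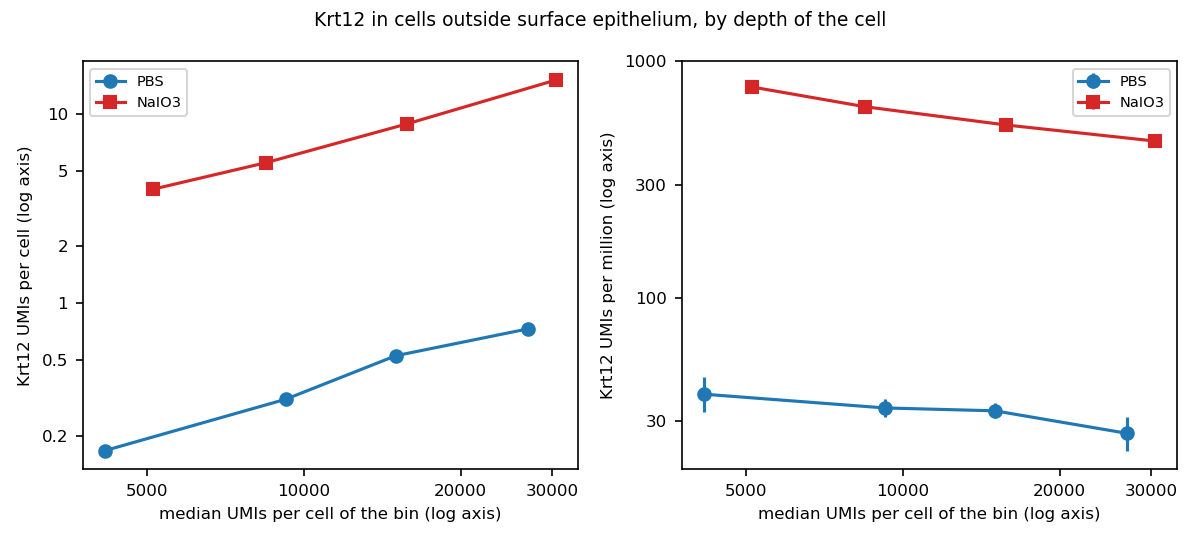
Krt12 in cells outside the surface epithelium against depth, for 4 classes of UMIs per cell in each library placed at their median; left, mean Krt12 UMIs per cell, and right, Krt12 CPM with exact Poisson 95% intervals. The count per cell goes from 4.01 to 15.2 in NaIO3 while the CPM level goes from 780 to 460.

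Krt18 and Krt8 had such a low level as well, in both libraries. In immune, fibroblast, endothelial, rod, cone and Muller glia-like cells, where present, Krt18 lay between 173 and 320 CPM in 5 PBS groups, with a median at 25.7% of the library's level, and between 184 and 457 in 5 NaIO3 groups. Krt8 lay between 21.1 and 82.2 in PBS and between 65.7 and 134 in NaIO3. Groups left out of these ranges reached higher. Krt18 stood at 777 CPM in red cell-like PBS cells and at 702 (PBS) and 598 (NaIO3) in bipolar or amacrine neuron-like cells. Krt8 stood at 164, 142 and 168 in the same groups. Their clusters also scored on the RPE list, at 1.58 (clusters 24 and 26) and 1.70 (cluster 32), beside 1.89 in RPE-like cluster 0. Fibroblast-like cluster 17, inside the ranges above, scored 1.54. The part of RPE cells or RNA in the keratin levels of these clusters was not tested. Mural-like PBS cells held 5 Krt18 UMIs (67.1 CPM) and 6 Krt8 UMIs (80.5). With the level of immune-like cells subtracted, RPE-like cells stood at 668 and 905 CPM for Krt18, 114 and 307 for Krt8, 31.7 and 19.8 for Krt23, 23.0 and 33.1 for Krt10, and 7.71 and 6.59 for Krt1 in PBS and NaIO3.

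The remaining keratins gave little to read. Krt80 had 97 UMIs, Krt77 40, Krt32 18, Krt76 17, Krt84 12 and Krt20 11, and a further 14 had between 1 and 9. The 10 without a UMI (Krt25, Krt26, Krt31, Krt35, Krt39, Krt71, Krt73, Krt74, Krt81 and Krt83) are keratins of hair and hair follicle, and Krt74 is annotated as a pseudogene. For such a gene, as for Krt25, a count of 0 allows a level of up to 0.0635 CPM over all kept PBS cells and 0.0620 over all kept NaIO3 cells. Krt75 and Krt77 were below 1 CPM in RPE-like cells of both libraries.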

How the data were processed

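Per the labels, cells of 2 groups (6 mice pooled each) were run on the 10x Genomics system. What the authors deposited are unnormalised UMI counts, a gene by barcode matrix for each library, and per the submitters' processing notes they came from Cell Ranger 3.0.2 and build mm10. The sources used here do not give the annotation release, strand use or treatment of multi-mapping reads. Cells needed 500 genes and no more than 25% mitochondrial counts; 231 PBS and 114 NaIO3 barcodes failed. Doublets were ranked with Scrublet, whose automatic threshold marked 0 and 1, so the highest scores were removed at 0.8% per 1000 barcodes (171 and 132).

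With keratin rows removed, both libraries were clustered together without integration (counts scaled to 10000 per cell, 2000 variable genes, 30 principal components, 15 neighbours, Leiden resolution 1), which gave 35 clusters. A name needed a mean log2 level of at least 1 over the median cluster (5 CPM added) and 3 markers at 2-fold, from 27 lists. It was refused where a different list held more of the 10 leading genes, or where a shallow cluster had no leading gene on the list. Pigment-led cluster 3 scored 1.60 on the RPE list but was not named RPE. Its leading genes hold Trpm1, a marker of bipolar neurons, and no RPE marker. The rules for matrix-rich and pigment-led clusters applied to clusters without a name and were set after seeing the clusters. Matrix-rich needed a matrix mean of at least 1 and a pigment mean of at least 0.5. Pigment-led needed an RPE mean of at least 1 and a pigment mean of at least 2. Members, lists and comparisons were chosen with earlier results of these data known. Every keratin with at least 100 UMIs is named, as are the 3 highest of each type in a cluster.

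Levels are CPM with exact Poisson 95% intervals, ratios have exact conditional binomial intervals, and no p-value was computed, since there is 1 library per group. Median depth before filters was 10024.5 and 9792.5 UMIs per barcode. A gene entered a comparison with at least 20 UMIs in 1 side. Statistics were tested on simulated data. Alternatives covered clustering, filters, reference cells and scaling by edgeR's TMM factors (0.935 and 1.07). Coordinates come from GENCODE M21, in which all 51 keratins matched. Tools were Python 3.11.15, scanpy 1.11.5, leidenalg 0.10.2, numpy 2.4.6, scipy 1.17.1, pandas 2.3.3, R 4.3.3 and edgeR 4.0.16.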

Additional observations from a re-analysis of the deposited data

Results flagged for a closer look

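For 5 keratins the NaIO3 and PBS libraries differed in opposite directions in surface cluster 4 and in RPE-like cells, with 95% counting intervals on opposite sides of 1; the difference between the 2 ratios was not tested, as each rests on 1 library per group. Krt10 was 3.52 times as high in NaIO3 in cluster 4, where its PBS level did not pass as above immune-like cells. In RPE-like cells it stood at 0.839 times. The RPE-like ratio turned to 1.04 with each library clustered alone and to 1.44 with the immune-like level subtracted. Krt78 (0.939 times in cluster 4, 11.8 times in RPE-like cells) and Krt23 (1.04 and 0.567 times) also lay on opposite sides of 1, with an interval in cluster 4 that includes 1. Krt13 was 0.772 times as high in cluster 4 and 13.7 times in RPE-like cells. Krt15 stood at 0.484 times and 19.4 times, Krt7 at 0.0526 times and 5.45 times, and Krt4 at 0.652 times and 59.3 times. For Krt13, Krt15, Krt7 and Krt4 the RPE-like level in NaIO3 was near that of immune-like cells of the same library (126 against 119, 246 against 220, 7.12 against 7.11 and 45.1 against 46.3 CPM).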

How the results depend on the processing

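No paired analysis was possible because each group has 1 library. The same limit leaves the difference between mice, or between preparations, unmeasured, and treatment and preparation cannot be told apart. The number of RPE-like NaIO3 cells depends on the clustering, from 641 to 2245 over the settings, against 2375 to 3524 in PBS.

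The Krt8 ratio of RPE-like NaIO3 over PBS cells was above 1 under all 10 alternatives tried. It was 2.01 with keratin rows kept for clustering, 1.98 at Leiden resolution 0.5, 1.70 with each library clustered alone, 1.70 with doublets kept, 1.76 at a mitochondrial limit of 10%, 1.66 with TMM scaling, 1.98 with the pigment-led cluster counted in and 2.70 with the immune-like level subtracted. The Krt18 ratio under the same 8 settings was 1.18, 1.17, 1.05, 1.06, 1.05, 0.989 (reversed), 1.17 and 1.35, and 1.17 for the biggest RPE-like cluster alone. The summed keratin ratio was 2.59, 2.58, 2.29, 2.34, 2.22, 2.22, 2.58 and 1.72, and 2.60 for that cluster. The Krt12 ratio, 17.9, was 10.9 at a mitochondrial limit of 10%. The Krt10 ratio reversed to 1.04 with each library clustered alone and to 1.44 with the immune-like level subtracted. The cause was not tested for any of these.

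The 5 keratins above immune-like cells in PBS became 3 with 37 rod-like cells as reference and stayed 5 with 354 fibroblast-, mural- and endothelial-like cells. They became 2 in CPM, 10 with a lower bound over 1 and 3 in CPM without the dendritic-led cluster. In NaIO3 the 5 became 2 with 19 rod-like cells, 2 with 57 fibroblast-, mural- and endothelial-like cells as reference, and 9 with a lower bound over 1. The 13 keratins more than 2-fold apart became 26 when a single UMI sufficed, a setting in which ratios rest on very few counts. Krt12 in cluster 4 was 37004 CPM at a mitochondrial limit of 10%. Krt15 in cluster 9 was 11841 with keratin rows kept, 11065 with doublets kept and 12677 at the mitochondrial limit of 10%, and in cluster 11 it was 25918 with doublets kept. These surface clusters were recomputed under 3 alternatives, each time in the cluster that held most of their cells. Alternatives with the pigment-led cluster, the subtracted level and the dendritic-led cluster were chosen after seeing the data.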
